A study of Mus musculus with 2 samples.

Results

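The genes described here are the nuclear-encoded parts of the mitochondrial respiratory chain, as they were read in GR1+ cells of mouse mammary tumors. They were taken by symbol: every listed gene starting with Nduf, Uqcr, Atp5 or Cox4 to Cox8, together with Sdha, Sdhb, Sdhc and Sdhd. Of 32285 listed genes, 94 had such a symbol and 91 of these held at least 10 unique molecular identifiers (UMIs) in the retained cells. The 3 left out were Cox7b2 and Cox8c with 0 UMIs and Cox8b with 1 UMI, all isoforms known from testis, muscle or brown fat. The 91 genes comprised 39 of complex I, 8 named as complex I assembly factors (Ndufaf), 4 of complex II, 8 of complex III, 15 of complex IV and 17 of complex V.

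The cells came from BALB/c mice, 6 to 8 weeks old by the labels, that carried 4T1 mammary carcinoma, either the parental 4T1P line, which does not respond to anti-PD1, or the mutagenized 4T1M line, which does. Tumors were dissociated, GR1+ cells (GR1 is an antigen shared by Ly6G and Ly6C) were enriched with magnetic beads, and 1 droplet library was made per line from 5 pooled mice by the series record, while a figure legend of the study gives a different number. No treatment arm is given in the labels of either library, and both tumors are grafts of 1 cell line, so that each stands for 1 tumor model. With a single pooled library for each tumor line there is no measure of the spread between mice, so differences between the lines are given without a test, and every interval is a 95% interval for counting error only.

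The non-responding library held 2947 barcodes and the responding library 5004, of which 1726 and 3461 passed the limits of 500 to 5000 genes and no more than 10% UMIs from mt- genes. The retained cells held 12948585 and 19302483 UMIs, and 3 of the retained barcodes were found in both libraries. Neutrophils were the cells with at least 1.5% of UMIs from S100a8 and S100a9 and under 0.5% from C1qa, C1qb, C1qc and Apoe, and macrophages those below the first limit with at least 0.3% from C1qa, C1qb, C1qc, Apoe, Csf1r, Cd68 and Fn1. This gave 612 and 1686 neutrophils and 798 and 976 macrophages in the non-responding and the responding library. A list of 10 neutrophil markers took 175753 and 143430 CPM (counts per 1000000 UMIs of the class) in neutrophils against 773 and 1415 CPM in macrophages, and a list of 13 macrophage markers took 21605 and 20773 CPM in macrophages against 724 and 834 CPM in neutrophils. Part of this match was fixed in advance, since the rule itself had used several of these markers. Among them, S100a9 alone held 92881 of the 175753 CPM. Gene by gene, all 10 neutrophil markers were lower in macrophages of both libraries. The smallest gaps, of Mmp9 and Il1r2, which the rule had not used, were -2.79 and -3.10 on the log2 scale. Of the 13 macrophage markers 12 were higher in macrophages of both libraries, and Ly6c2 went the other way (-3.19 and -0.32). The part of RNA from the other class in the values below was not tested. Macrophages were deeper (median of 9727 and 9214 UMIs per cell) than neutrophils (3054 and 2958 UMIs).

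The respiratory chain passes electrons from NADH through complex I and from succinate through complex II to ubiquinone, on through complex III and cytochrome c to complex IV and oxygen, and the proton gradient built on the way drives ATP synthesis by complex V. Mitochondrial DNA encodes core subunits of complexes I, III, IV and V, and the nucleus encodes the remaining subunits, including all of complex II, so that both genomes have to be expressed for a working chain. Neutrophils are known to rely largely on glycolysis and to hold few mitochondria, whereas macrophages can draw on oxidative phosphorylation.

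Promoters of respiratory chain genes are known for sites of NRF1, ETS factors such as GABPA, YY1 and ESRRA. RefSeq promoter sequence (GRCm38.p6, 250 bases before to 50 after the start) was matched for 73 of the 91 genes. Searched on both strands, the NRF1 core GCGCATGC was found in 12 of the 73 (16.4%) against 3.05% of all 27025 genes in the collection and 5.73% of the 10547 of these with at least 10 UMIs here. The ETS motif CCGGAAG was found in 19 (26.0%, against 9.93% and 19.6%), the YY1 motif AAGATGG in 11 (15.1%, against 7.28% and 8.42%) and the ESRRA motif TCAAGGTCA in 2 (2.74%, against 0.466% and 0.294%). None of the 4 motifs holds another, and a match is a string of letters, not a shown site. To show what such promoters look like, the 200 bases before the start, a shorter window than the one counted, are given for Cox6a1, a complex IV subunit, for Uqcr11, a small complex III subunit, for Ndufc2, which had one of the widest gaps between macrophages and neutrophils, and for Cox8a, which had one of the narrowest. Matches are in capitals.
Cox6a1 (chr5:115348959-115349158, minus strand): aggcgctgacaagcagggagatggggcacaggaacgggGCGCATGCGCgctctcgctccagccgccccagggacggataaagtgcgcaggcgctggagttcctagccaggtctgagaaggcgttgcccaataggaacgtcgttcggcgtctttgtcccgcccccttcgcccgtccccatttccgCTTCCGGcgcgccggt
Uqcr11 (chr10:80406822-80407021, minus strand): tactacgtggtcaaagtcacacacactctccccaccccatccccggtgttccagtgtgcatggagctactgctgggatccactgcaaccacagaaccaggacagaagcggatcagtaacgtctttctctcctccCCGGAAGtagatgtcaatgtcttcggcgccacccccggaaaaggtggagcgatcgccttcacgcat
Ndufc2 (chr7:97399803-97400002, plus strand): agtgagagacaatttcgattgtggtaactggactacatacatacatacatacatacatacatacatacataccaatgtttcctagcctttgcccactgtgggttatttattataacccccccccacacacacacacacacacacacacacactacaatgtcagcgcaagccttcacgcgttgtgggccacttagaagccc
Cox8a (chr19:7217617-7217816, minus strand): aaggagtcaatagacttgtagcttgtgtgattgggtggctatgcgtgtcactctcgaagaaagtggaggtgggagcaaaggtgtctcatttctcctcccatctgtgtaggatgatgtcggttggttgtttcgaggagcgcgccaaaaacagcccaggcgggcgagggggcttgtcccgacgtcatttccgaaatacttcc
The Cox6a1 window held the NRF1 core on both strands at overlapping positions, and near its end the ETS motif on the opposite strand. The Uqcr11 window held the ETS motif alone, and the longer promoter used for the counts also held the NRF1 core. Cox8a had no match in its printed window but held the ETS motif in the longer promoter, and Ndufc2 held none of the 4 motifs in either. By GENCODE M21 the last 23 bases of the Cox6a1 window and the last 9 of the Uqcr11 window lie inside the annotated gene. The windows of Ndufc2 and Cox8a lie outside their genes.

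Macrophages held more respiratory chain RNA than neutrophils in both libraries. Summed over the 91 genes, the level was 16525 CPM in macrophages and 6203 CPM in neutrophils of the non-responding library, and 16656 and 5842 CPM in the responding library. The log2 ratio of macrophages over neutrophils was 1.41 (1.39 to 1.44) in the non-responding library, a 2.66-fold difference, and 1.51 (1.5 to 1.53) in the responding one. The sum is a share of each class's UMIs, so that fewer transcripts of these genes in a cell and more of all other RNA cannot be told apart. Per cell, this came to a mean of 25.4 and 22.8 respiratory chain UMIs in neutrophils and 182 and 159 in macrophages. The plot of levels by gene, class and library shows the genes one by one.

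**Figure D1:**
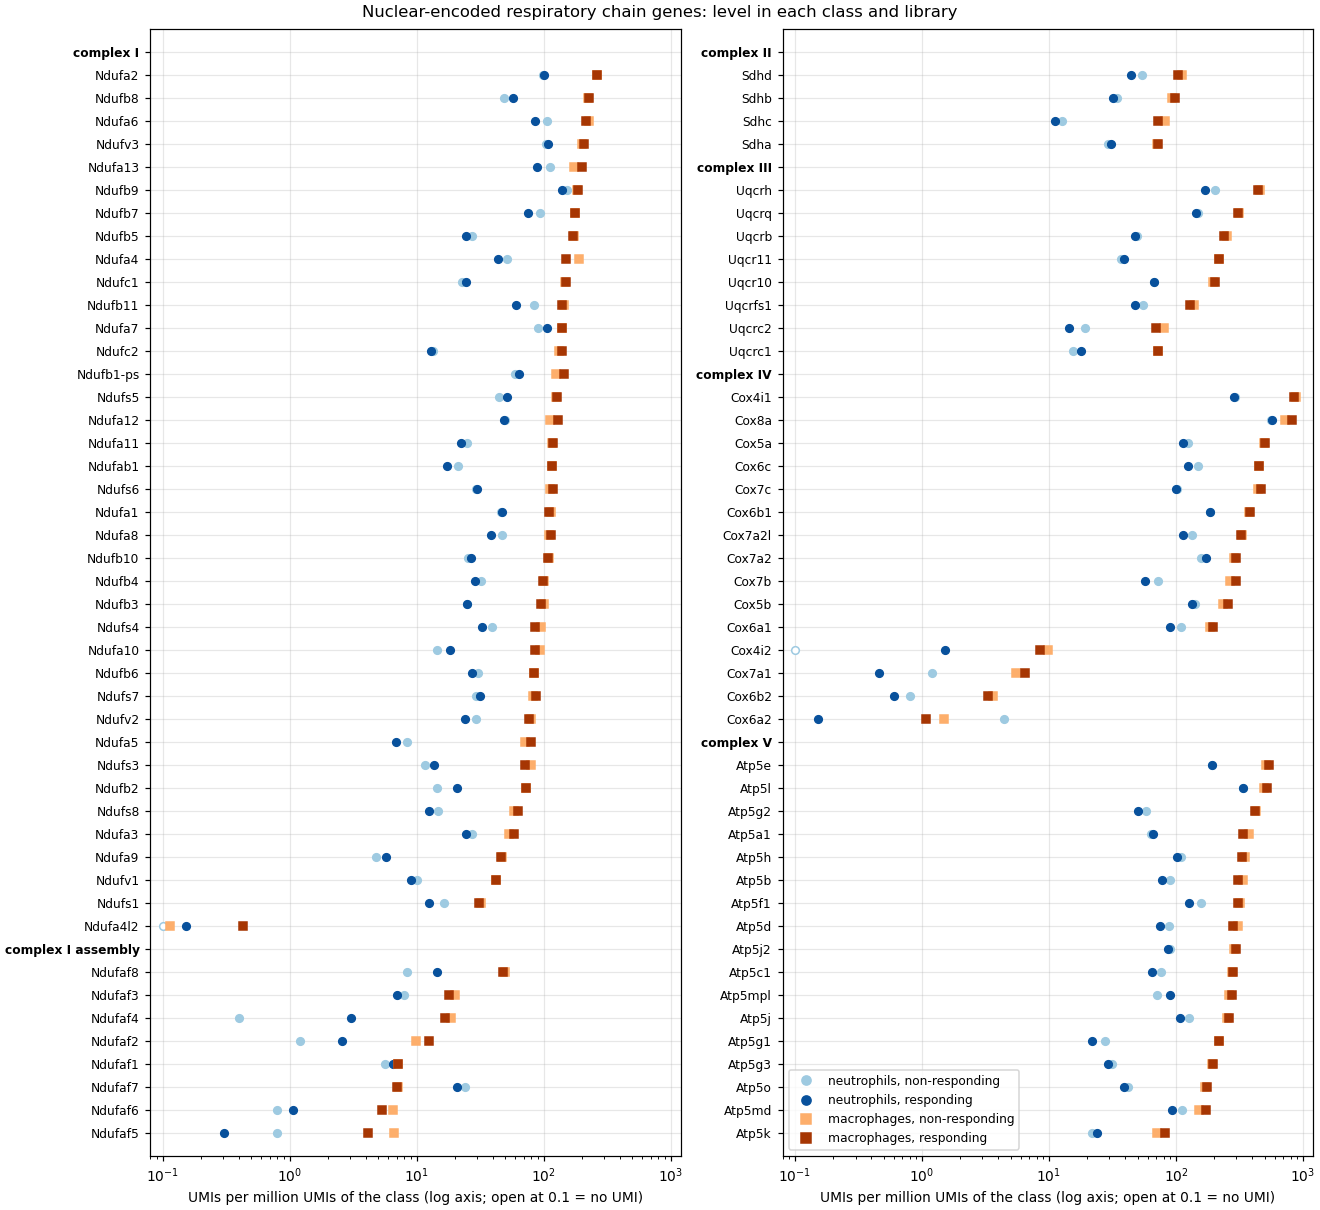
Level of the genes reported, in CPM (log axis), grouped by complex and ordered by the mean macrophage level, with circles for neutrophils, squares for macrophages, light colors for the non-responding and dark colors for the responding library. The squares lie to the right of the circles for nearly all genes, those of Ndufaf7 lying to the left in both libraries and that of Cox6a2 in the non-responding one (4.39 CPM in neutrophils, from 1 cell, and 1.48 CPM in macrophages), and the light and dark symbols of a class mostly lie close together.

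A ratio was read as past the fold when it reached 0.35 on the log2 scale in either direction, the limit the study used for its own comparisons, and a gene was compared when its mean was at least 10 CPM with at least 10 UMIs. In the non-responding library 79 of 81 genes compared were higher in macrophages and 1 was lower, where 62.0% of the 6706 genes compared in all were higher and 22.9% lower. In the responding library 80 of 81 were higher and 1 was lower, against 60.4% higher and 23.3% lower over 6596 genes. The median ratio of the respiratory chain genes was 1.60 and 1.69, and that of all genes 0.87 and 0.76. In both libraries at once, 79 of 81 were higher and 1 was lower, where 57.8% and 20.6% of 6430 genes were. The remaining gene was Ndufb9, a subunit of the complex I membrane arm, with a log2 ratio of 0.28 and 0.43.

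The classes also differed in how their UMIs were spread over genes. The 10 most abundant genes took 31.6% and 30.4% of the UMIs of neutrophils and 12.7% and 12.8% of those of macrophages. Scaling by edgeR's TMM factors, which moved the median of all genes to -0.19 and -0.20, left the summed respiratory chain ratio at 0.49 and 0.64, and DESeq2 size factors left it at 0.46 and 0.59. The direction of the sum held under these scalings, and its size depended on them.

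In complex I, which oxidizes NADH, the summed level was 4617 and 4627 CPM in macrophages and 1683 and 1583 CPM in neutrophils. The widest gaps were those of Ndufc2, a small membrane subunit, with 13.6 and 12.9 CPM in neutrophils against 133 and 139 CPM in macrophages (log2 ratio 3.27 and 3.42), and of Ndufa5, with 8.39 and 6.84 CPM against 71.9 and 80.2 CPM (3.07 and 3.54). Ndufa9 stood at 3.24 and 2.98, and Ndufb5 at 2.66 and 2.78. The narrowest were Ndufb9, with 152 and 139 CPM in neutrophils against 184 and 188 CPM in macrophages, and Ndufa7, with 90.7 and 107 CPM against 140.2 and 140.4 CPM (0.63 and 0.40). Some complex I transcripts of neutrophils were thus close to the macrophage level and others far below it. The catalytic core subunits Ndufv1, which binds NADH, and Ndufs1, Ndufs3, Ndufs7 and Ndufs8 of the electron path lay between 0.97 and 2.75 in the non-responding and between 1.30 and 2.35 in the responding library.

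Ndufaf7, a complex I assembly factor of the mitochondrial matrix, went the other way. It stood at 24.0 and 20.97 CPM in neutrophils (60 and 138 UMIs) against 7.19 and 7.06 CPM in macrophages (63 and 66 UMIs), a log2 ratio of -1.74 (-2.27 to -1.2) and -1.56 (-2.02 to -1.14). Cebpz starts within 1 kb of it on the opposite strand and is oriented away from it. The other assembly factors compared did not share this direction: Ndufaf8 was at 2.52 and 1.70 and Ndufaf3 at 1.29 and 1.34.

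Complex II is encoded by the nucleus alone and also belongs to the tricarboxylic acid (TCA) cycle. Its flavoprotein gene Sdha stood at 29.2 and 30.9 CPM in neutrophils and 71.4 and 71.7 CPM in macrophages, its iron-sulfur subunit Sdhb at 34.4 and 32.1 against 92.5 and 97.8 CPM. Of the membrane anchors, Sdhd was at 53.9 and 44.5 against 112 and 104 CPM, and Sdhc at 12.8 and 11.1 against 82.1 and 72.6 CPM. All 4 were higher in macrophages of both libraries, from 1.05 to 2.70 on the log2 scale, with Sdhc showing the widest gap.

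In complex III, which hands electrons to cytochrome c, Uqcrh was the most abundant member, with 204 and 171 CPM in neutrophils and 456 and 446 CPM in macrophages. Uqcrh and Uqcrq had the narrowest gaps (1.16 and 1.38, and 1.05 and 1.10), and Uqcr11 and Uqcrb the widest (2.54 and 2.48, and 2.35 and 2.34). The Rieske iron-sulfur protein gene Uqcrfs1 lay at 1.32 and 1.44, and the core protein genes Uqcrc1 and Uqcrc2 at 2.19 and 2.02 and at 2.05 and 2.27.

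Complex IV, which reduces oxygen, had the smallest summed ratio of the complexes, 1.2 (1.16 to 1.24) in the non-responding and 1.32 in the responding library. This went with Cox8a, its most abundant transcript in neutrophils, at 566 and 573 CPM in neutrophils against 725 and 827 CPM in macrophages (0.36 and 0.53). Cox4i1, the regulatory subunit, was the most abundant in macrophages, with 888 and 844 CPM against 293 and 289 CPM in neutrophils (1.60 and 1.55). Cox7b (1.89 and 2.38) and Cox7c (2.11 and 2.21) had wide gaps and Cox7a2 (0.84 and 0.80) a narrow one.

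The subunits with tissue isoforms were read almost wholly through the isoform known from most tissues. Cox6b1 held 185 CPM in neutrophils of each library and Cox6a1 110 and 89.4 CPM, whereas Cox6b2, known from testis, and Cox7a1, known from heart and muscle, were at 1.2 CPM or less in neutrophils and 6.53 CPM or less in macrophages. Cox4i2, an isoform known from lung and from low oxygen, held 86 and 80 UMIs in 60 and 55 macrophages (9.81 and 8.56 CPM). In neutrophils it held 0 UMIs in the non-responding library, where 3 counts would be 1.2 CPM, and 10 UMIs in 5 cells of the responding one. The lower counting limit of its macrophage over neutrophil log2 ratio was 2.70 in the non-responding and 1.54 in the responding library. Cox4i2 did not reach the limits for comparison in either. Ndufa4l2, an isoform of Ndufa4 known to be induced by low oxygen, was at 0.43 CPM or less in each sum, while Ndufa4 itself stood at 190 and 149 CPM in macrophages.

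Cox6a2, the heart and muscle isoform of Cox6a1, was concentrated in very few cells. It held 220 UMIs in the retained cells of both libraries, and 190 of these were in the 17 cells with at least 3 UMIs of Siglech, a gene known from plasmacytoid dendritic cells, a grouping made after its values were seen. Its level was 1152 and 1050 CPM in these 8 and 9 cells and 1.32 and 0.676 CPM in all other retained cells of the 2 libraries. The 11 UMIs counted for it in neutrophils of the non-responding library came from 1 cell, and Siglech reached 30 UMIs in a neutrophil of that library and 0 in those of the responding one. The neutrophil value of Cox6a2 was therefore not read as a difference between the libraries.

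In complex V, the ATP synthase, the 3 genes that encode the same c-ring subunit, Atp5g1, Atp5g2 and Atp5g3, had the widest gaps, with 2.98 and 3.30, 2.88 and 3.05, and 2.60 and 2.74. Atp5g2 was the most abundant of the 3, with 58.3 and 50.3 CPM in neutrophils and 429 and 417 CPM in macrophages. The catalytic beta subunit Atp5b stood at 1.92 and 1.98 and the alpha subunit Atp5a1 at 2.55 and 2.37. Atp5l and Atp5md, small membrane subunits, had the narrowest gaps, 0.53 and 0.63 and 0.45 and 0.88, and Atp5l was the most abundant complex V transcript of neutrophils with 340 and 335 CPM. All 17 genes were past the fold in both libraries.

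The order of the genes was nearly the same in both libraries. Across the 81 genes compared in each, the macrophage over neutrophil ratios had a Pearson r of 0.96 and a Spearman rho of 0.96, and 78 of the 81 ratios differed by less than 0.5 between the libraries. This correlation is across genes, which are not replicates, and the libraries share gene lengths and the counting. The 3 exceptions were Ndufaf8 (2.52 and 1.70), Ndufa13 (0.62 and 1.18) and Ndufb2 (2.33 and 1.80).

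**Figure D2:**
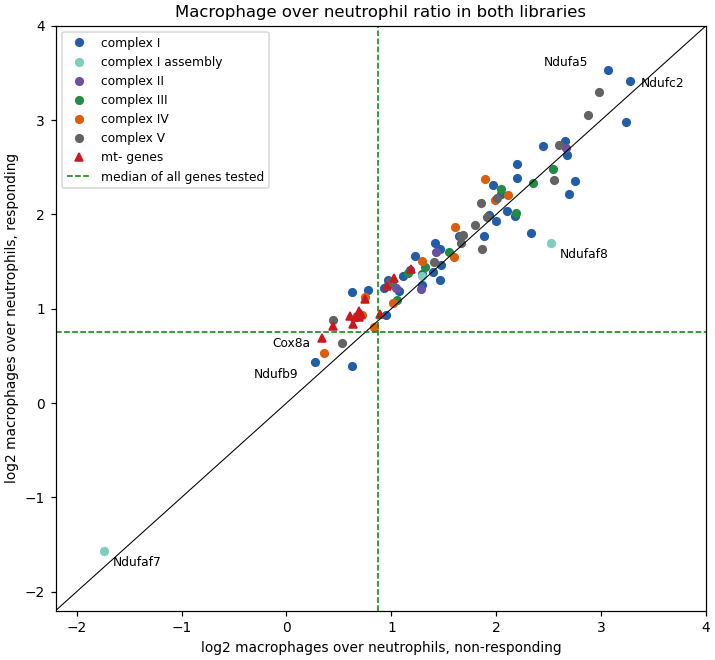
Log2 ratio of macrophages over neutrophils in the non-responding (horizontal) and responding (vertical) library for the 81 genes compared in both, colored by complex, with the 13 mt- genes as triangles, the diagonal in black and the medians of all genes dashed. The genes follow the diagonal from Ndufb9 (0.28 and 0.43) up to Ndufc2 (3.27 and 3.42), Ndufaf7 lies alone at -1.74 and -1.56, and the mt- genes sit at the lower end.

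The 13 transcripts encoded by mitochondrial DNA did not follow the nuclear genes in proportion. Their sum was 32590 and 24612 CPM in neutrophils and 52501 and 47369 CPM in macrophages, a macrophage over neutrophil ratio of 0.69 (0.68 to 0.70) and 0.94 on the log2 scale, below that of the nuclear genes. In the non-responding library neutrophils held 5.25 mt- UMIs for each nuclear respiratory chain UMI and macrophages 3.18, and in the responding library 4.21 and 2.84. This quotient does not depend on the scaling of the libraries, but the limit of 10% mitochondrial UMIs bounds the mt- share of every cell that enters it. Scaled by TMM, the mt- sum itself changed direction in the non-responding library (-0.24) and was 0.08 in the responding one. The lower ratio of the mt- genes also depended on the depth of the cells: among cells of at least 15000 UMIs it was 0.91 and 0.90, beside 0.78 and 0.92 for the nuclear genes, and among cells under 2500 UMIs -0.35 and 0.21, beside 2.29 and 2.26.

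Summed over all cells, the mt- genes also had the lower ratio complex by complex. These values are parts of the same sums and were not split by depth. The nuclear genes of complex I had a summed ratio of 1.46 and 1.55 and the mt-Nd genes 0.85 and 1.13, those of complex III 1.53 and 1.62 against 0.66 and 0.92 for mt-Cytb, those of complex IV 1.2 and 1.32 against 0.64 and 0.89 for mt-Co1, mt-Co2 and mt-Co3, and those of complex V 1.56 and 1.66 against 0.71 and 0.94 for mt-Atp6 and mt-Atp8. With all cells summed, the nuclear genes had the larger ratio in each of these complexes in both libraries.

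Other genes of energy metabolism are set beside these for orientation, from lists taken whole. Of 17 TCA cycle genes compared, 16 were higher in macrophages of each library (median 1.83 and 1.92), the exception being Cs, citrate synthase, at 0.17 and -0.65. Of the genes for cytochrome c, carriers and related proteins, 13 of 13 and 12 of 12 were higher (median 2.06 and 2.16), with Cycs, cytochrome c itself, lowest at 0.52 in the non-responding library. Of mitochondrial ribosomal protein genes 62 of 66 and 61 of 65 were higher (median 2.11 and 2.10). Glycolysis genes stood apart, with medians of -0.28 and -0.26, 4 and 3 of 21 higher and 9 lower in each library, among them Slc16a3, a lactate transporter, at -2.37 and -1.90 and Pfkfb3, an activator of glycolysis, at -1.90 and -1.85.

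Genes of mitochondrial biogenesis, among them the factors known to act on respiratory chain promoters, did not share one direction. Of 14 such genes 6 reached the limits for comparison, with a median of 0.10 and -0.09. Yy1 stood at 111 and 107 CPM in neutrophils and 111 and 91.5 CPM in macrophages, so that its levels in the classes were close. Gabpb1, the partner of GABPA, was lower in macrophages (-1.08 and -1.33), while Gabpa itself was at 0.50 and 0.04. Nrf1 was at -0.34 and -0.42, and Ssbp1, a mitochondrial DNA binding protein, was at 1.47 and 1.42. Ppargc1a, a coactivator of mitochondrial biogenesis, had no UMI in neutrophils of either library or in macrophages of the responding one. Of assembly factors outside the rule, 13 of 21 and 12 of 20 were higher, a share close to the 62.0% and 60.4% of all genes, while Higd1a (-1.48 and -1.39) and Cox17, a copper chaperone (-1.2 and -1.08), were lower. Cytosolic ribosomal protein genes had the highest medians, 2.15 and 2.37, with 79 and 80 of 81 past the fold.

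The difference between the classes was also seen cell by cell. With 1000 UMIs drawn from each cell (4, 26 and 37 cells with fewer were left out of the responding neutrophils and of the non-responding and responding macrophages), the median neutrophil held 5 respiratory chain UMIs (quartiles 3 and 7) in both libraries, and the median macrophage held 17 (quartiles 12 and 25 in the non-responding, 12 and 24 in the responding library). Before drawing, the medians were 16 and 15 in neutrophils and 139 and 126 in macrophages. Of the neutrophils, 5.39% and 5.29% reached the lower quartile of macrophages, 12 UMIs. Cells without any respiratory chain UMI at this depth made up 1.47% and 1.25% of neutrophils. In macrophages there were 0 of 772 and 0 of 939 such cells, which allows a share of up to 0.389% and 0.319%.

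**Figure D3:**
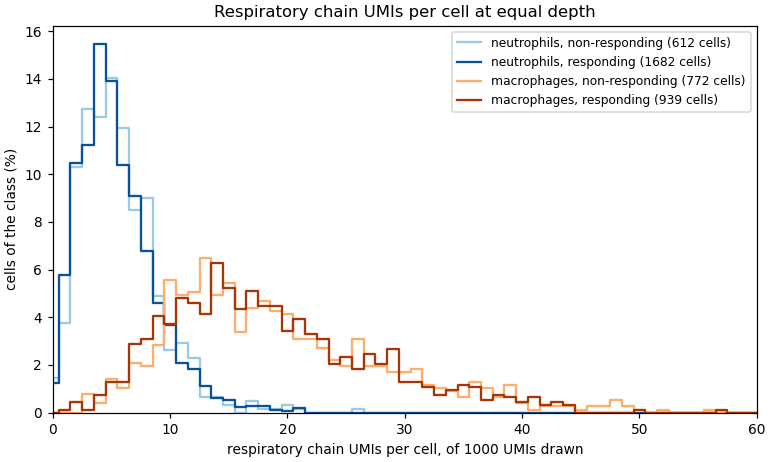
Share of cells (vertical, %) by the number of respiratory chain UMIs among 1000 UMIs drawn from each cell (horizontal), with 1 line per class and library. Neutrophils of both libraries peak near 5 and macrophages spread around 17, and the lines of a class nearly coincide between the libraries.

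The share moved with the depth of the cell, and not in the same way in the 2 classes. Macrophages with under 2500 UMIs held 25817 and 25427 CPM of respiratory chain RNA. Those with 7500 to 15000 UMIs held 14575 and 14851 CPM, and those with at least 15000 UMIs 16182 and 17067 CPM. Neutrophils with under 2500 UMIs held 5288 and 5317 CPM and those with 2500 to 7500 UMIs 5504 and 5224 CPM. The few with at least 15000 UMIs (14 and 31 cells) held 9437 and 9042 CPM. Within these ranges, chosen after seeing the data, the macrophage over neutrophil ratio was 2.29 and 2.26 under 2500 UMIs, 1.94 and 1.78 at 2500 to 7500, 1.06 and 1.16 at 7500 to 15000, and 0.78 and 0.92 at 15000 or more. The classes thus differed in the same direction in each range, by more than over all cells in the shallower ranges and by less in the deeper ones. The mt- share of macrophages rose from 26409 and 28167 CPM under 2500 UMIs to 55547 and 52321 CPM at 15000 UMIs or more. That of the nuclear genes fell up to the range of 7500 to 15000 UMIs and was higher again above it.

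**Figure D4:**
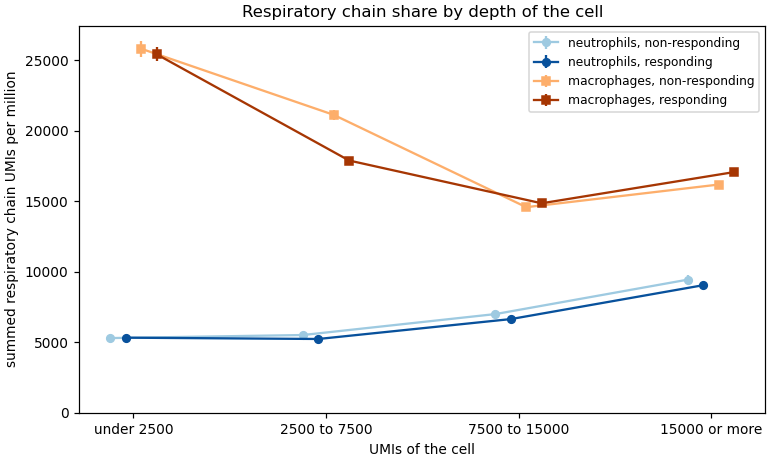
Summed respiratory chain CPM (vertical, from 0) in cells of 4 depth ranges (horizontal), for each class and library, with 95% counting intervals that are mostly smaller than the symbols. Macrophages start at 25817 and 25427 and end at 16182 and 17067, neutrophils start at 5288 and 5317 and end at 9437 and 9042, and the lines of the classes do not meet.

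Between responding and non-responding tumors, the respiratory chain genes hardly differed. In neutrophils the sum was 6203 CPM in the non-responding and 5842 CPM in the responding library, a log2 ratio of -0.09 (-0.11 to -0.06), or 0.942-fold. Of 77 genes compared, 2 were past the fold as higher and 4 as lower in the responding library, where 17.0% of all 5108 genes were higher and 9.48% lower. The median of the 77 was -0.11, that of all genes 0.03, and 53 of the 77 lay below 0, as did 46.0% of all genes. In macrophages the sum was 16525 and 16656 CPM, a log2 ratio of 0.01 (0.001 to 0.02). There 0 of 82 genes were higher and 1 was lower, against 7.15% and 8.53% of 7249 genes, and the median was 0.00 beside -0.03 for all genes. These counts came to 2.60% and 5.19% of the genes compared in neutrophils and to 0% and 1.22% in macrophages, a description of 2 libraries and not a test.

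Other genes moved between the neutrophils of the 2 libraries at the same time. The 9 granule genes summed to 13831 CPM in the non-responding and 8378 CPM in the responding library, and the 10 interferon genes to 2033 and 3112 CPM. Of other cell types, 5 erythroid markers went from 4.39 to 152 CPM, with Alas2 at 0 in both, and 5 epithelial markers, which mark tumor cells, from 70.3 to 12.9 CPM, with Krt19 at 0 in the responding library. The part of these shifts in the ratios between the libraries was not tested.

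Genes lower in responding neutrophils came from complexes I and III. Ndufb11, a membrane subunit of complex I, stood at 84.3 CPM in the non-responding and 60.6 CPM in the responding library (-0.48, interval -0.72 to -0.23). Ndufs1, which receives electrons early in complex I, went from 16.4 to 12.5 CPM (-0.40, -0.95 to 0.18) and Uqcrc2 from 19.2 to 14.3 CPM (-0.43, -0.94 to 0.11), so that the interval of Ndufb11 lay below 0 and those of Ndufs1 and Uqcrc2 included it. Ndufa13 and Cox7b, at -0.35 after rounding, fell just short of the limit.

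The 2 genes higher in responding neutrophils rested on few UMIs. Ndufaf8, an assembly factor, had 21 UMIs (8.39 CPM) in the non-responding and 96 (14.6 CPM) in the responding library, a log2 ratio of 0.77 (0.11 to 1.55), and Ndufb2 had 36 and 136 UMIs (14.4 and 20.7 CPM; 0.51, -0.02 to 1.10). In macrophages both stood at -0.05 and -0.02. No gene with a mean of at least 50 CPM was past the fold as higher in neutrophils, and Ndufb11 was the only such gene that was lower.

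The 1 gene past the fold in macrophages was Ndufa4, known as a complex IV protein despite its name and counted here, by its symbol, in the sums of complex I, with 190 CPM in the non-responding and 149 CPM in the responding library (-0.35, interval -0.46 to -0.25). In neutrophils it stood at 51.5 and 43.5 CPM (-0.25, -0.55 to 0.07). The highest macrophage ratios among abundant genes were those of Atp5k (0.21), Ndufa13 (0.20), Ndufb1-ps (0.20), Ndufa12 (0.20) and Cox8a (0.19). Ndufa13, known also as a regulator of STAT3, lay at -0.35 (-0.55 to -0.14) in neutrophils and 0.20 (0.11 to 0.30) in macrophages, and Cox7b at -0.35 and 0.15, both with intervals on opposite sides of 0. Ndufa13 overlaps Yjefn3 on the same strand, so that its reads may be shared, the 1 such overlap among the 91 genes.

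By complex, the summed ratios in neutrophils were -0.09 for complex I, -0.14 for complex II, -0.12 for complex III, -0.06 for complex IV and -0.11 for complex V. In macrophages they were 0.00, -0.05, -0.03, 0.05 and -0.00 in the same order. In neutrophils all 5 lay below 0 and in macrophages they lay around it. Removing the cells with the highest doublet scores left -0.05 in neutrophils. Among macrophages of 2500 to 7500 UMIs the sum was -0.24, at 21126 CPM in the non-responding and 17886 CPM in the responding library. There 27 of 83 genes were lower, a count given without the share of all genes that were lower in that range. The median ratio of all genes in macrophages lay between -0.07 and 0.02 in every setting in which genes were counted, that depth range included.

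**Figure D5:**
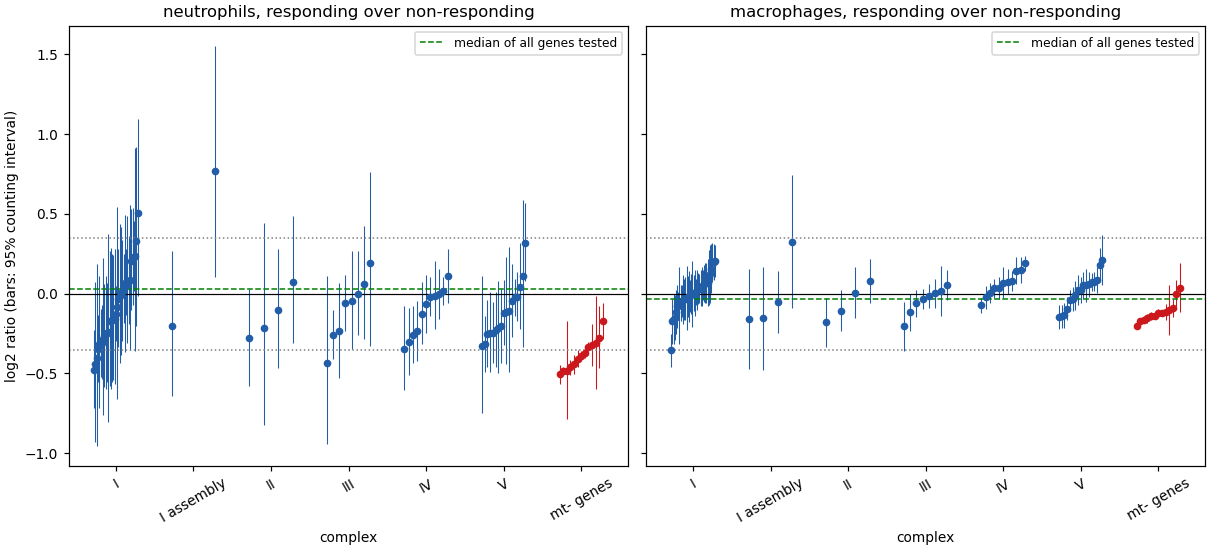
Log2 ratio of the responding over the non-responding library for each gene compared (points, with 95% counting intervals), by complex, in neutrophils (left) and macrophages (right), with the mt- genes in red, the median of all genes dashed and the limits of 0.35 dotted. The nuclear genes straddle 0 in both classes, while all 13 mt- genes lie below 0 in neutrophils.

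Summed over all neutrophils, the mt- transcripts differed more between the libraries than the nuclear genes. In neutrophils all 13 lay below 0, from -0.50 for mt-Nd2 to -0.17 for mt-Nd5, and 8 were past the fold as lower, with a summed log2 ratio of -0.41 (-0.42 to -0.39), or 0.755-fold. In macrophages the sum was -0.15 (-0.15 to -0.14) and 0 of 13 were past the fold. The neutrophil mt- ratio was -0.43 with the mitochondrial limit at 20% and -0.31 with it at 5%, and with 1000 UMIs drawn per cell the median neutrophil held 27 mt- UMIs in the non-responding and 18 in the responding library, beside the 5 respiratory chain UMIs in both. The neutrophil mt- ratio moved with the depth of the cells, from -0.46 under 2500 UMIs and -0.53 at 2500 to 7500 to -0.15 (-0.18 to -0.12) at 7500 to 15000 and -0.08 (-0.12 to -0.04) at 15000 or more. The nuclear sum stood at 0.01, -0.08, -0.08 and -0.06 in the same ranges, so that the mt- and nuclear ratios were close in the deepest neutrophils. In macrophages the mt- ratio ran from 0.09 under 2500 UMIs to -0.21 at 7500 to 15000. With 1 library each, the tumor line and the handling of the library cannot be told apart.

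Neutrophils were further divided by 2 gene lists. Granule-rich neutrophils, with at least 1% of UMIs from granule genes such as Camp, Ltf and Ngp, numbered 44 and 83, and 13 and 41 neutrophils lay within 20% of that limit. Their respiratory chain level was 7566 and 7362 CPM against 5862 and 5610 CPM in the other neutrophils (log2 0.37 and 0.39), and 44 of 75 and 53 of 78 genes compared were higher, against 23.8% and 24.1% of all genes. Ndufb7 (2.04 and 1.53), Ndufb8 (1.46 and 1.37) and Ndufb11 (1.23 and 1.5), all of the complex I membrane arm, had the highest ratios among abundant genes, while Cox8a (-0.38 and -0.56) was lower. The mt- sum went the other way, by -0.38 and -0.17. Granule-rich cells were much deeper, however, with a median of 9510 and 8770 UMIs against 2954 and 2888. Within cells of 2500 to 7500 UMIs the ratio of the nuclear genes was -0.11 and 0.01, on 14 and 29 granule-rich cells. Within cells of at least 7500 UMIs it was -0.02 and 0.09, on 27 and 49 granule-rich cells. In both ranges it was lower than over all neutrophils, and below 0 in the non-responding library. The part of depth in the difference was not tested.

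Interferon-high neutrophils, with at least 0.5% of UMIs from interferon-stimulated genes such as Ifit1, Isg15 and Rsad2, numbered 84 and 353, with 38 and 146 cells within 20% of the limit. Their respiratory chain level was 4666 and 4810 CPM against 6391 and 6069 CPM in the other neutrophils, a log2 ratio of -0.45 (-0.54 to -0.37) and -0.34 (-0.38 to -0.29) at a similar median depth of 3080 and 2888 UMIs against 3050 and 2977. Of the genes compared, 42 of 73 and 37 of 75 were lower and 2 and 0 higher, where 29.6% and 26.4% of all genes were lower. Lower among abundant genes were Ndufv3 (-1.41 and -0.34), Atp5f1 (-1.10 and -0.56), Atp5h (-0.96 and -0.65) and Cox6c (-1.0 and -0.58), while Cox8a stood at -0.06 and -0.03. The mt- sum was not lower, at 0.07 and 0.10. Within cells of 2500 to 7500 UMIs the ratio of the nuclear genes was -0.24 and -0.20, and within cells of at least 7500 UMIs -0.96 and -0.46. Of all neutrophils, 42 and 106 held 7500 to 15000 UMIs and 14 and 31 held at least 15000. The interferon-high cells were only a part of these deep neutrophils, and their number in each depth range is not given here. Granule-rich cells were not set apart among the deep neutrophils. The size of the ratio thus changed with depth, and similar medians do not show the deep cells, which weigh most in a sum.

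Within these groups the libraries were again alike in the nuclear genes. The responding over non-responding ratio was 0.04 (-0.04 to 0.13) in interferon-high and -0.07 (-0.10 to -0.05) in the other neutrophils, while the mt- ratio was -0.39 and -0.42. In granule-rich and the other neutrophils the nuclear ratio was -0.04 (-0.10 to 0.02) and -0.06 (-0.09 to -0.03), whereas the mt- ratio was -0.24 (-0.28 to -0.21) and -0.45 (-0.47 to -0.44). Interferon-high cells made up 13.7% of the neutrophils of the non-responding and 20.9% of those of the responding library, and the respiratory chain level was lower in them in both.

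Cycling macrophages, with at least 0.2% of UMIs from genes such as Mki67, Top2a and Birc5, numbered 54 and 38, with 22 and 16 cells within 20% of the limit. They held 21908 and 21287 CPM of respiratory chain RNA against 16358 and 16532 CPM in the other macrophages (log2 0.42 and 0.36), and 53 of 84 and 51 of 82 genes were higher, against 37.0% and 41.3% of all genes. Uqcrc1 (1.02 and 0.70), Ndufs8 (1.02 and 0.70), Atp5g3 (0.75 and 0.85) and Cox5a (0.78 and 0.80) were among the highest of the abundant genes, and the mt- sum was at -0.04 and 0.03. These cells were shallower (median of 2129 and 2752 UMIs against 10826 and 9488), and among cells of 2500 to 7500 UMIs the ratio was 0.37 and 0.75, on 15 and 11 cycling cells. Under that depth limit, and under one of at least 7500 UMIs (0.17 and 0.21, on 8 and 10 cells), the direction held in both libraries. These ranges left out the cycling cells under 2500 UMIs, for which no ratio was computed. All macrophages under 2500 UMIs held 25817 and 25427 CPM, above the sums of the cycling cells, so the part of depth in the difference was not settled.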

How the data were processed

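The authors deposited UMI counts per gene and barcode, raw and not normalized, for 2 droplet libraries of GR1+ cells, aligned to mm10 (GRCm38) by Cell Ranger; the matrix header and the submitters' processing notes name version 4.0.0, and the study's methods another. Members and gene lists were chosen with earlier results of these data known. For each class and library the counts of all its cells were added up and expressed as CPM (exact Poisson intervals). Log2 ratios had 0.5 UMIs added to each sum and exact conditional (Clopper-Pearson) intervals at 95%, which cover counting error only. No p-value was computed with 1 library per group. The gene rule took, per complex and comparison, the 2 highest and 2 lowest members of at least 50 CPM, all Sdh genes, the most abundant members and isoforms; members past the fold were also named, except 1 gene that is not reported here, and genes of the granule-rich, interferon-high and cycling cells were chosen after their values were seen.

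For comparisons at equal depth, 1000 UMIs were drawn per cell without replacement. Doublets were kept; Scrublet (scanpy 1.11.5) called 1 and 0 barcodes at its automatic threshold, too few to be of use, and an alternative left out the 69 and 200 barcodes with the highest scores at 0.8% per 1000 barcodes. Scaling alternatives took factors from edgeR 4.0.16 (TMM) and DESeq2 1.42.0 in R 4.3.3, for scaling only. Python 3.11.15 was used with scipy 1.17.1. Gene positions came from GENCODE M21 and promoters from RefSeq. Of the 91 genes, 30 overlap a gene on the opposite strand. Kept cells in neither class (316 and 799) were not compared. The droplet kit and counting setting for strand are not given in the sources used here.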

Additional observations from a re-analysis of the deposited data

Results flagged for a closer look

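The summed respiratory chain genes had responding over non-responding log2 ratios of opposite sign in the 2 classes, -0.09 in neutrophils and 0.01 in macrophages. The macrophage value, 1.008-fold, was hardly a difference. Complex IV also had opposite signs, with -0.06 in neutrophils and 0.05 in macrophages. These differences between the classes were not tested, since each class comes from the same 2 libraries, and both sums changed direction with the processing, the neutrophil sum in cells under 2500 UMIs (0.01).

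Barcodes outside the retained cells also held respiratory chain RNA. Barcodes with over 5000 detected genes held 18928 CPM in the non-responding and 19720 CPM in the responding library, above the level of retained macrophages. Barcodes above the mitochondrial limit held 7292 and 7541 CPM, with 24.1% and 21.9% of their UMIs from mt- genes. Barcodes with under 500 detected genes held 5684 and 8645 CPM, with 60.2% and 40.4% of their UMIs from mt- genes. The CPM total includes the mt- UMIs, so a larger mt- share lowers the CPM of the nuclear genes. These values therefore cannot be set directly beside those of the retained cells or of the other library.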

How the results depend on the processing

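No paired analysis was possible because each condition is 1 pooled library. The UMI counts of weakly expressed genes limit their ratios. In the settings named, the cause of a change was not tested. Counts past the fold are given below for the respiratory chain genes alone, without the share of all genes in that setting. They do not show whether a change was particular to these genes. Depth ranges, and doublet removal in the smaller groups, were added after seeing the data. The summed responding over non-responding log2 ratio in neutrophils moved from -0.09 to -0.06 with the mean of per-cell shares, -0.05 with cells thinned to 1000 UMIs -0.05 with the top Scrublet scores left out and 0.01 with cells under 2500 UMIs. In macrophages it moved from 0.01 to 0.06 with TMM factors, 0.05 with DESeq2 size factors, -0.05 with the mean of per-cell shares, -0.05 with cells thinned to 1000 UMIs, -0.02 with a mitochondrial limit of 5%, 0.04 with a mitochondrial limit of 20%, -0.01 with no upper limit of genes, 0.02 with stricter class limits -0.24 with cells of 2500 to 7500 UMIs, -0.02 with cells under 2500, 0.03 with cells of 7500 to 15000 and 0.08 with cells of at least 15000. The macrophage over neutrophil log2 ratio moved in the non-responding library from 1.41 to 0.49 with TMM factors, 0.46 with DESeq2 size factors, 1.44 with totals without mt- genes, 1.06 with totals without the 10 most abundant genes of a class, 1.78 with the mean of per-cell shares, 1.76 with cells thinned to 1000 UMIs, 1.48 with a mitochondrial limit of 5%, 1.47 with no upper limit of genes, 1.52 with stricter class limits, 1.5 with the top Scrublet scores left out, 1.94 with cells of 2500 to 7500 UMIs, 2.29 with cells under 2500, 1.06 with cells of 7500 to 15000 and 0.78 with cells of at least 15000. In the responding library it moved from 1.51 to 0.64 with TMM factors, 0.59 with DESeq2 size factors, 1.55 with totals without mt- genes, 1.19 with totals without the 10 most abundant genes of a class, 1.80 with the mean of per-cell shares, 1.76 with cells thinned to 1000 UMIs, 1.62 with stricter class limits, 1.57 with the top Scrublet scores left out, 1.78 with cells of 2500 to 7500 UMIs, 2.26 with cells under 2500, 1.16 with cells of 7500 to 15000 and 0.92 with cells of at least 15000. For responding over non-responding neutrophils, the count of genes past the fold as higher changed from 2 to 5 with the mean of per-cell shares, 7 with cells thinned to 1000 UMIs, 5 with the top Scrublet scores left out, 1 with assembly factors and pseudogenes left out, 4 with cells of 2500 to 7500 UMIs, 1 with a 1.5-fold limit, 5 with no CPM filter and 0 with a mean of at least 50 CPM. For responding over non-responding neutrophils, the count of genes past the fold as lower changed from 4 to 7 with totals without the 10 most abundant genes of a class, 9 with the mean of per-cell shares, 17 with cells thinned to 1000 UMIs, 8 with a mitochondrial limit of 5%, 13 with cells of 2500 to 7500 UMIs, 0 with a 1.5-fold limit and 1 with a mean of at least 50 CPM. For responding over non-responding macrophages, the count of genes past the fold as higher changed from 0 to 1 with cells thinned to 1000 UMIs and 1 with cells of 2500 to 7500 UMIs. For responding over non-responding macrophages, the count of genes past the fold as lower changed from 1 to 0 with TMM factors, 0 with DESeq2 size factors, 2 with the mean of per-cell shares, 5 with cells thinned to 1000 UMIs, 0 with a mitochondrial limit of 20%, 0 with the top Scrublet scores left out, 27 with cells of 2500 to 7500 UMIs, 0 with a 1.5-fold limit and 3 with no CPM filter. For macrophages over neutrophils of the non-responding library, the count of genes past the fold as higher changed from 79 to 51 with DESeq2 size factors. For macrophages over neutrophils of the non-responding library, the count of genes past the fold as lower changed from 1 to 5 with TMM factors, 5 with DESeq2 size factors, 0 with assembly factors and pseudogenes left out, 2 with no CPM filter and 0 with a mean of at least 50 CPM. For macrophages over neutrophils of the responding library, the count of genes past the fold as lower changed from 1 to 3 with TMM factors, 4 with DESeq2 size factors, 0 with assembly factors and pseudogenes left out and 0 with a mean of at least 50 CPM. The median per 1000 UMIs in non-responding macrophages was 16 with 2000 UMIs drawn. The median per 1000 UMIs in responding macrophages was 15.75 with 2000 UMIs drawn. In the non-responding library, the ratio of granule-rich neutrophils over the other neutrophils went from 0.37 to -0.11 with cells of 2500 to 7500 UMIs, -0.02 with cells of at least 7500 UMIs and 0.48 with the top Scrublet scores left out. In the responding library, the ratio of granule-rich neutrophils over the other neutrophils went from 0.39 to 0.01 with cells of 2500 to 7500 UMIs, 0.09 with cells of at least 7500 UMIs and 0.45 with the top Scrublet scores left out. In the non-responding library, that of interferon-high neutrophils went from -0.45 to -0.24 with cells of 2500 to 7500 UMIs, -0.96 with cells of at least 7500 UMIs and -0.37 with the top Scrublet scores left out. In the responding library, that of interferon-high neutrophils went from -0.34 to -0.20 with cells of 2500 to 7500 UMIs, -0.46 with cells of at least 7500 UMIs and -0.29 with the top Scrublet scores left out. In the non-responding library, that of cycling macrophages went from 0.42 to 0.37 with cells of 2500 to 7500 UMIs and 0.17 with cells of at least 7500 UMIs. In the responding library, that of cycling macrophages went from 0.36 to 0.75 with cells of 2500 to 7500 UMIs and 0.21 with cells of at least 7500 UMIs. The mt- macrophage over neutrophil ratio of the non-responding library turned from 0.69 to -0.24 with TMM factors, -0.26 with DESeq2 size factors and -0.35 with cells under 2500 UMIs, and the mt- responding over non-responding ratio in macrophages from -0.15 to 0.09 with cells under 2500 UMIs. The macrophage over neutrophil sum kept its direction in all settings tried, with a range of 0.46 to 2.29 in the non-responding and 0.59 to 2.26 in the responding library, and the neutrophil sum between the libraries did so except with cells under 2500 UMIs. A further 130 values of these results moved by less than their counting interval, or by less than 1.5 times for a count.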
